A study of Mus musculus with 6 samples.

Results

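The signals of 10 genes for secreted immune signals of fibroblasts were followed on 6 mouse arrays: the chemokine genes Cxcl1, Cxcl5, Cxcl10, Cxcl12, Ccl2, Ccl5, Ccl7 and Cx3cl1, the growth factor gene Csf1 and the cytokine gene Il6. They were measured by all probe sets that the platform annotation maps to them, where a probe set is a set of short probes directed at 1 transcript. All 10 genes had at least 1, and together they had 14 of the 12422 probe sets that are not array controls. An intensity filter kept 10 of the 14 for testing, which read 9 of the genes, and Cxcl10 was read only by a probe set below the filter.

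The cells were the clone 35/1-22 of NIH3T3, an immortalised mouse fibroblast line. Every group carried the oncogenes c-myc and Ha-ras behind a Tet-off promoter, which doxycycline silences, and a constitutively made fusion of the transcription factor IRF-1 with the part of the human estrogen receptor that binds hormone, called IRF-1hER, which estradiol activates. In the estradiol group doxycycline was withdrawn and estradiol was given for 48 h at 1 mM, the concentration as labelled. In the withdrawal group doxycycline was withdrawn and no estradiol was given, and in the doxycycline group the cells were kept with doxycycline at 2 µg/ml, which by the labels keeps the oncogenes off. Each group had 2 arrays. The title of 1 of them, doxycycline replicate 2, also names estradiol, which its treatment entry does not. All cells were of 1 clone, and no group lacked the constructs. Effects of doxycycline itself and of the oncogenes cannot be told apart, nor those of estradiol itself and of the activated fusion. The comparisons ask what switching on the oncogenes, activating IRF-1 on top of them, and both steps together do to these genes.

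Chemokines are small secreted proteins that attract cells carrying matching receptors, and fibroblasts are a known source of them in wounds and tumours. Cxcl1 and Cxcl5 attract neutrophils through the receptor Cxcr2, Ccl2 and Ccl7 attract monocytes through Ccr2, and Ccl5 and Cxcl10 are classical products of cells stimulated by interferon. Csf1 keeps macrophages alive and makes them multiply, and Il6 signals through Il6st to Stat3. Many of these genes are known targets of the transcription factor NF-kappaB, and some bind factors of the interferon response or AP-1 in their promoters.

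The promoters of 3 members are printed because the signals of Cxcl1 and Csf1 ran in parallel across the arrays and because the Cxcl10 promoter is a textbook example of one that interferon regulatory factors bind. RefSeq entries on GRCm38.p6 were matched by symbol for 6 of the 10 genes, namely Cxcl1, Cxcl10, Cxcl12, Csf1, Il6 and Cx3cl1. Each sequence is the 250 bases before the annotated start, given 5′ to 3′ on the strand of the gene. Capitals mark matches on either strand to the NF-kappaB consensus, to AANNGAAA, the core that interferon regulatory factors bind, and to TGANTCA, the AP-1 element. The Cxcl1 window is chr5:90890995-90891244 on the plus strand, the Cxcl10 window is chr5:92348890-92349139 on the minus strand, and the Csf1 window is chr3:107760470-107760719 on the minus strand.
Cxcl1: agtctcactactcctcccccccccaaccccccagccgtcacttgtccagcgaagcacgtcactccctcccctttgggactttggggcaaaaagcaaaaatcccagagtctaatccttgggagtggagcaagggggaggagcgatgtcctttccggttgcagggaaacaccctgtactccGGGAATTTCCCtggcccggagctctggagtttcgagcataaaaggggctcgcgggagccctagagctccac
Cxcl10: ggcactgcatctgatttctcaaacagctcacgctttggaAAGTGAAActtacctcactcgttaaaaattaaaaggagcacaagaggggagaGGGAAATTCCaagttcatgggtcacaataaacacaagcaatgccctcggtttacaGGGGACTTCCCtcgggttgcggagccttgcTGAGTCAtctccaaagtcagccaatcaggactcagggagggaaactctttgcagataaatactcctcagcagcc
Csf1: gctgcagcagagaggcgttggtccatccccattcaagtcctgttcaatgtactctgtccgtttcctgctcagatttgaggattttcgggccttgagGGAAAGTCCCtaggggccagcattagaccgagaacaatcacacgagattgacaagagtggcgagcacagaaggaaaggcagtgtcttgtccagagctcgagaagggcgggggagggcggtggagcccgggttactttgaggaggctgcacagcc

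The Cxcl1 window held overlapping matches to the NF-kappaB consensus on both strands, from position -71 to -61 counted from the start. The Csf1 window held 1, on the strand opposite to the gene, from -154 to -145. In the Cxcl10 window the consensus matched from -159 to -150 and, in overlapping matches, from -104 to -94, AANNGAAA matched from -211 to -204 and TGANTCA from -74 to -68. The Il6 window, not printed, held an NF-kappaB match from -44 to -35 and a TGANTCA match from -249 to -243, and the windows of Cxcl12 and Cx3cl1 held no match to any of the 3 motifs. Among 32851 mouse promoters of the same length, 7.25% held the NF-kappaB consensus, 21.3% held AANNGAAA and 6.75% held TGANTCA. A match describes the letters in the window and does not show that a factor binds there.

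The values are MAS5 signals, intensities on a linear scale that had been scaled to a common level, with median signals of 49.55 to 52.6 per array. Replicate 1 RNA came from an RNeasy kit and replicate 2 RNA from TRIzol, by the labels' protocols, so replicate number and extraction kit cannot be told apart. Group names did not order all arrays. The withdrawal replicates differed at least 2-fold in 920 of 7453 tested probe sets, whereas withdrawal replicate 2 and doxycycline replicate 1 differed so in 324, and estradiol replicate 1 and withdrawal replicate 1 in 16. Doxycycline replicate 2 has estradiol in its title but only doxycycline under treatment, and it was grouped by its treatment. Myc signals were 31.9 and 28.1 on the estradiol arrays, 25.7 and 118.5 on the withdrawal arrays and 62.3 and 49.6 on the doxycycline arrays, and Irf1 signals lay between 155.2 and 319.8. Whether these mouse probe sets read the introduced genes is not given in the sources used here, so they do not check the labels, and Myc was not higher on all arrays labelled as having the oncogenes on. Of 15 listed fibroblast genes 13 were above the filter, and Col1a2, a chain of type I collagen, was bright on every array. The probe sets of Vim, for the filament protein vimentin, and of Lum were below the filter and read 40.7 and 25.3 at most. Of 19 leukocyte genes on the array 7 were above the filter: Ptprc and Adgre1 were at or under 13.8 throughout, while Cd14 read 257.4 to 379.1, Csf1r 81.8 to 155.4 and Cd68 70.1 to 132.1.

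Across the 6 arrays, 5 members shared one pattern. Cxcl1, Cxcl5, Ccl2, Ccl7 and Csf1 had high signals on both doxycycline arrays and on withdrawal replicate 2, and low signals on both estradiol arrays and on withdrawal replicate 1. Ccl5 stood apart with 1 bright array, doxycycline replicate 2, and Cxcl10, Cxcl12 and Il6 stayed near or below the intensity filter. With all 6 arrays in the fit no member passed the test in any comparison, and the sizes given for each member are limma estimates on log2(signal + 32), a scale that understates the change of dim probe sets. P-values are two-sided, adjusted with the Benjamini-Hochberg method over all 7453 tested probe sets, and the threshold is 0.05. The labels do not say that the arrays of a group came from separate cultures, so p-values reflect only how much these arrays vary, and that variation may be technical.

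**Figure D1:**
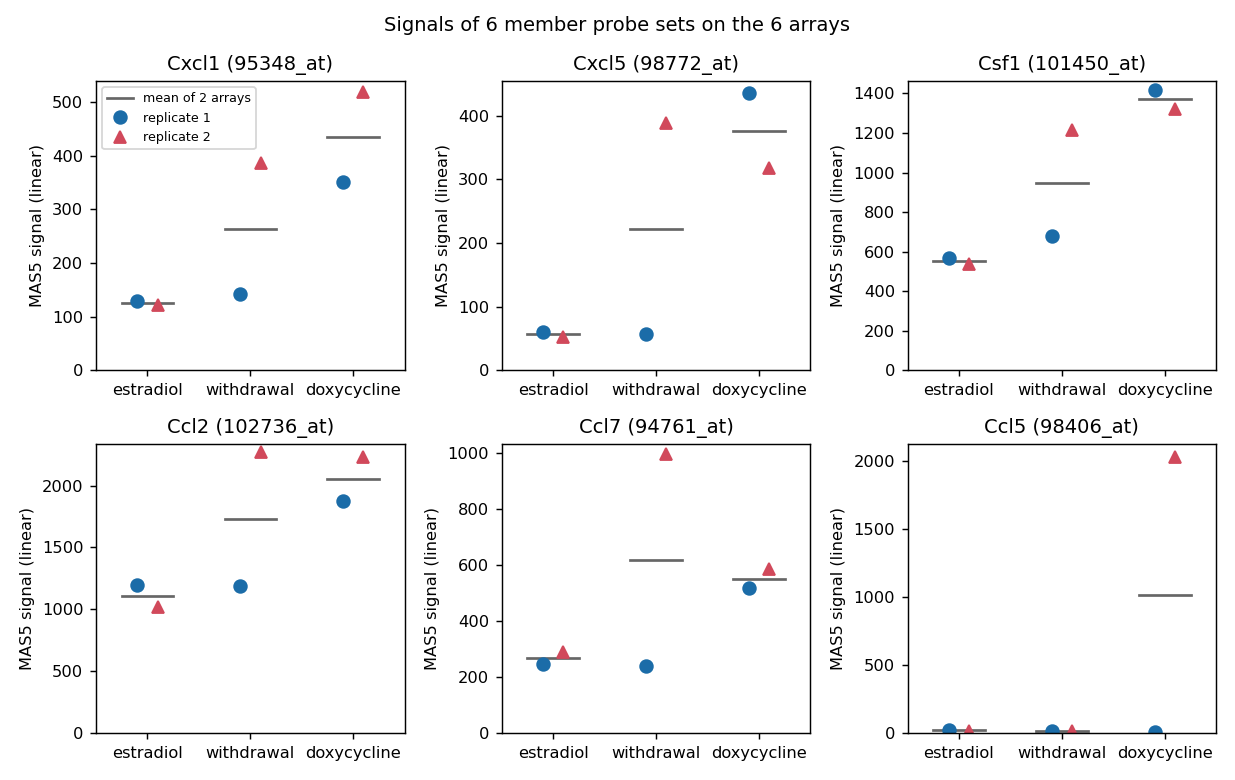
MAS5 signal on a linear axis for 6 member probe sets in the estradiol, withdrawal and doxycycline groups, with 1 point per array (circles for replicate 1, triangles for replicate 2) and a line at the mean of the 2 arrays. In the panels of Cxcl1, Cxcl5, Csf1, Ccl2 and Ccl7 the triangle of the withdrawal group sits near or above the doxycycline arrays and its circle near the estradiol arrays, and in the Ccl5 panel 1 point, at 2027.8, stands above the rest.

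Among the neutrophil attractants, Cxcl1 (95348_at) had signals of 128.9 and 120.8 on the estradiol arrays, 141.6 and 385.7 on the withdrawal arrays and 350.7 and 519.3 on the doxycycline arrays. Both estradiol arrays lay below all the others, while the withdrawal arrays overlapped with the doxycycline arrays. Estradiol against doxycycline gave a log2 fold change of -1.55 ± 0.42 (SE, 95% interval -2.51 to -0.59), or 0.341 times the level, with a limma adjusted p of 0.255. The differences of estradiol against withdrawal, -0.78, and of withdrawal against doxycycline, -0.77, had intervals that included 0. A further Cxcl1 probe set, 95349_g_at, reads the same sequence accession and is no independent measurement. It had 75.9 and 52.8 with estradiol, 55.2 and 197.6 after withdrawal and 166.2 and 250.4 with doxycycline, the same order of group means, and its log2 fold changes were -1.31, -0.56 and -0.74 for estradiol against doxycycline, estradiol against withdrawal and withdrawal against doxycycline.

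Cxcl5 (98772_at), a close relative that acts through the same receptor, had signals of 60.5 and 52.1 with estradiol, 57.2 and 387.8 after withdrawal and 435.2 and 317.2 with doxycycline. Its arrays fell into 3 dim and 3 bright ones, and the withdrawal group held 1 of each. The difference of estradiol against doxycycline was the largest of the pattern, -2.20 ± 0.61 on the log2 scale (SE, interval -3.60 to -0.79), or 0.218 times the level, with a limma adjusted p of 0.255. Per replicate number it was -2.34 and -2.05. Withdrawal against doxycycline gave -1.06, made up of -2.39 for replicate 1 and 0.27 for replicate 2, and estradiol against withdrawal gave -1.13, made up of 0.05 and -2.32. The withdrawal replicates thus differed by 2.23 log2 units in Cxcl5, the 43rd largest difference between them among 12422 probe sets.

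The other CXC members were dim. Cxcl12 (100112_at), the ligand of Cxcr4 that holds haematopoietic cells in their niches, had 33.1 and 21.3 with estradiol, 34.9 and 24.8 after withdrawal and 55.3 and 43.7 with doxycycline. Both doxycycline arrays were above the other 4, at differences of -0.46 (estradiol against doxycycline) and -0.40 (withdrawal against doxycycline) on the log2 scale with intervals that included 0. The withdrawal arrays of Cxcl12 lay within 0.24 log2 units of each other, so it did not share the split seen in Cxcl5. Its further probe sets, 160511_at and 162234_f_at, stayed at or below 15.1 on all arrays and were not tested. Cxcl10 (93858_at) had 5.1 and 12.3 with estradiol, 9.9 and 2.3 after withdrawal and 7.4 and 32.6 with doxycycline, below the filter, which lay near a signal of 29. Only doxycycline replicate 2 exceeded that level in Cxcl10, and no fold is given.

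Among the monocyte attractants, Ccl2 (102736_at) had signals of 1192.8 and 1018.8 with estradiol, 1184.7 and 2276.3 after withdrawal and 1874.2 and 2234.8 with doxycycline. Both doxycycline arrays exceeded both estradiol arrays, and the withdrawal arrays lay 1 with each. Estradiol against doxycycline gave -0.87 ± 0.36 on the log2 scale (SE, interval -1.69 to -0.06), or 0.546 times the level, with a limma adjusted p of 0.339. Withdrawal against doxycycline gave -0.31 and estradiol against withdrawal -0.56, both with intervals that included 0. Without withdrawal replicate 1 the first of these was 0.15, and without withdrawal replicate 2 it was -0.77.

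Ccl7 (94761_at), the neighbour of Ccl2 in the mouse chemokine cluster, had 246.6 and 287.9 with estradiol, 238.9 and 994.7 after withdrawal and 516.5 and 586.0 with doxycycline. The highest and the lowest Ccl7 signals were both withdrawal arrays, 1.92 log2 units apart. Estradiol against doxycycline gave -0.96 ± 0.54 on the log2 scale (SE, interval -2.21 to 0.28), with -0.98 within replicate 1 and -0.95 within replicate 2. Withdrawal against doxycycline was -0.14 with all arrays, 0.82 without withdrawal replicate 1 and -1.10 without withdrawal replicate 2, so its direction turned with the array left out.

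Ccl5 (98406_at), which attracts T cells and monocytes, had 24.0 and 16.9 with estradiol, 11.5 and 12.1 after withdrawal and 4.8 and 2027.8 with doxycycline. Only doxycycline replicate 2 was bright, and doxycycline replicate 1 was the dimmest of the 6 arrays. The doxycycline replicates differed by 5.81 log2 units in Ccl5, the largest difference between them among 12422 probe sets. The estimates of -2.40 ± 1.45 for estradiol against doxycycline and -2.65 ± 1.45 for withdrawal against doxycycline (log2, SE) rest on that array. With doxycycline replicate 2 left out, Ccl5 fell below the intensity filter and had no test. It passed the filter only through the group in which it was high, as its mean log2 value without that array was 5.51 against a filter of 5.93.

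Ccl5 also led all probe sets in its excess on doxycycline replicate 2 over the next brightest array, at 5.20 log2 units. It was followed by H2-Aa, an MHC class II chain, at 5.09 and Cd74, the invariant chain, at 4.56, and then by the interferon-induced genes Ifit3, Usp18, Ifit1 and Isg15 at 4.48 to 3.84. On doxycycline replicate 2, 99 of 12422 probe sets exceeded every other array by at least 1 log2 unit, against 1 and 11 on the estradiol arrays, 0 and 21 on the withdrawal arrays and 11 on doxycycline replicate 1. Leukocyte markers summed to 950.5 on that array and to 782.3 to 889.5 on the others, and single markers went both ways. Fcgr3 at 52.0, Itgax at 58.5, Elane at 100.4 and Cd14 at 379.1 each had their highest value of the 6 arrays there. Cd68 at 70.1 had its lowest, Csf1r at 103.1 and Cd4 at 54.7 lay below their highest values of 155.4 and 107.5, and Ptprc was at 4.3. The title of this array also names estradiol, which its treatment entry does not, and its RNA came from TRIzol. The other TRIzol arrays read Ccl5 at 16.9 (estradiol replicate 2) and 12.1 (withdrawal replicate 2). The parts of leukocyte transcripts, of estradiol and of the kit in the Ccl5 signal were not tested. With 1 such array, leukocyte transcripts and estradiol cannot be told apart.

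Cx3cl1 (98008_at), a chemokine held on the cell surface until it is shed, had 148.6 and 198.4 with estradiol, 156.0 and 166.2 after withdrawal and 204.7 and 247.1 with doxycycline. The doxycycline arrays were the brightest, by a narrow margin, and the withdrawal arrays lay close together. The log2 fold changes were -0.33 ± 0.26 for estradiol against doxycycline, 0.08 ± 0.26 for estradiol against withdrawal and -0.41 ± 0.26 for withdrawal against doxycycline (SE), all with intervals that included 0. The other Cx3cl1 probe set, 161752_r_at, read 25.2 at most and was not tested.

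Csf1 (101450_at), the growth factor of macrophages, had signals of 569.5 and 537.2 with estradiol, 681.0 and 1213.9 after withdrawal and 1418.7 and 1323.6 with doxycycline. The 3 groups did not overlap in Csf1, with estradiol lowest, doxycycline highest and the withdrawal arrays apart from each other. Estradiol against doxycycline gave -1.26 ± 0.33 on the log2 scale (SE, interval -2.02 to -0.51), or 0.417 times the level, with a limma adjusted p of 0.255, and its values per replicate number were -1.27 and -1.25. Estradiol against withdrawal gave -0.69 (interval -1.44 to 0.07) and withdrawal against doxycycline -0.57 (interval -1.33 to 0.18). Withdrawal replicate 2 lay 0.81 log2 units above replicate 1. Csf1r, the receptor of Csf1, had 108.7 and 125.7 with estradiol, 81.8 and 155.4 after withdrawal and 119.6 and 103.1 with doxycycline, and these groups overlapped.

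Il6 (102218_at) had 31.0 and 10.4 with estradiol, 15.7 and 35.6 after withdrawal and 38.0 and 54.2 with doxycycline. Both doxycycline arrays were brighter than the others, at signals close to the filter. It lay just inside the filter, at a mean log2 value of 5.93, equal to a signal of 29.1, and without doxycycline replicate 2 its mean was 5.83, below the filter. The log2 fold changes were -0.59 ± 0.31 for estradiol against doxycycline, -0.14 ± 0.31 for estradiol against withdrawal and -0.45 ± 0.31 for withdrawal against doxycycline (SE). The bulk signal cannot tell fewer cells with a transcript and less RNA per cell apart, for Il6 as for every member.

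**Figure D2:**
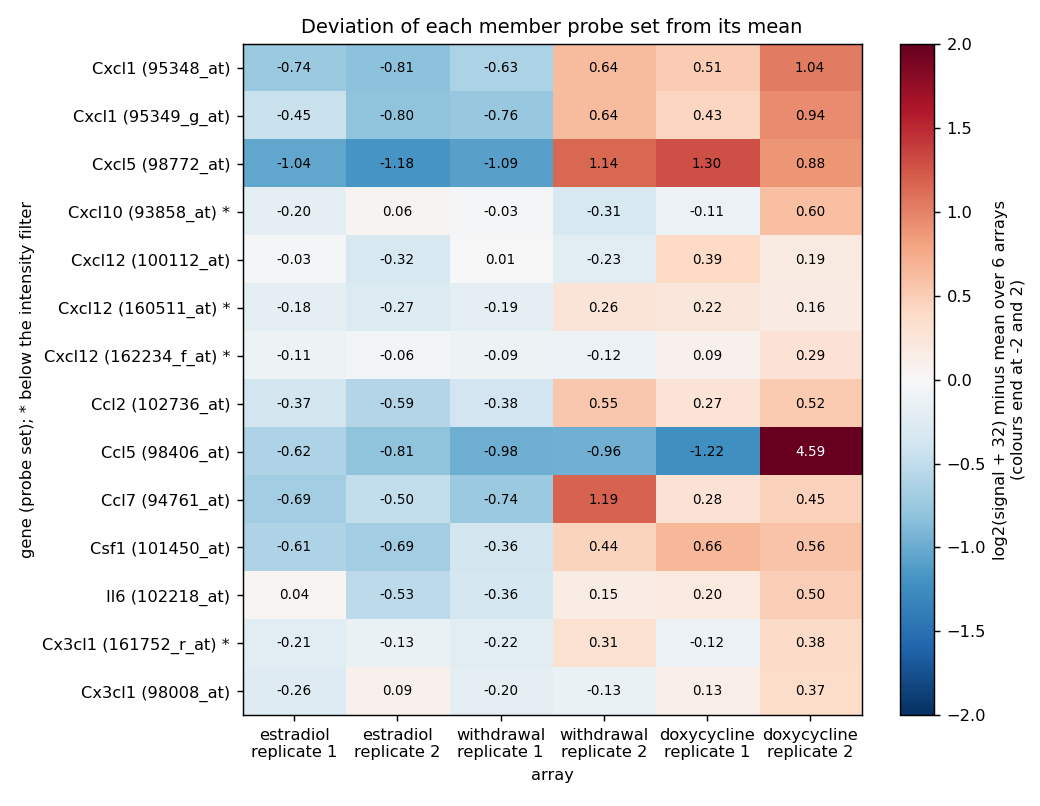
Deviation of each of the 14 member probe sets (rows) from its own mean over the 6 arrays (columns), in log2 units of signal + 32; an asterisk marks the 4 probe sets below the intensity filter, and colours end at -2 and 2. Withdrawal replicate 2 carries the colours of the doxycycline arrays for Cxcl1, Cxcl5, Ccl2, Ccl7 and Csf1, and the Ccl5 row has 1 dark cell, on doxycycline replicate 2.

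For estradiol against doxycycline, which by the labels sets oncogenes on with active IRF-1 against oncogenes off, the members had lower signals with estradiol. The title of doxycycline replicate 2 also names estradiol, and by that title this array would not be free of it. The members were chosen with earlier results of these data known. In every comparison the shares of all tested probe sets are therefore given as description, and are no independent test of the members as a set. All 10 tested probe sets had a negative log2 fold change, against 49.6% of all tested probe sets, and their median was -1.11 against 0.00353. In 9 of 10 the estradiol arrays lay below both doxycycline arrays, where 24.7% of all tested probe sets did so, the exception being Ccl5. Values at least 2-fold lower with estradiol in both replicate numbers were seen in 3 of 10, Cxcl1 (95348_at), Cxcl5 and Csf1, against 1.22% of all tested probe sets. At an unadjusted p under 0.05, 5 of 10 were lower, against 5.66% of all tested probe sets, and these were both Cxcl1 probe sets, Cxcl5, Ccl2 and Csf1. With limma and the Benjamini-Hochberg adjustment 0 of 10 passed, as did 0% of all tested probe sets, although 1041 of them had an unadjusted p under 0.05.

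That call depended on which arrays set the spread. With only the estradiol and doxycycline arrays in the fit, 132 probe sets passed, 1.77% of all tested, and 3 of 10 members were among them: Cxcl1 (95348_at) with an adjusted p of 0.0393, Cxcl5 with 0.0286 and Csf1 with 0.0461. The same 3 members passed in the 3-group fit without withdrawal replicate 2, where 1.82% of all tested probe sets passed, and without withdrawal replicate 1, where 1.76% did. Without doxycycline replicate 2, where that group is 1 array whose spread is taken from the other groups, 0 of 8 tested members passed, and their median was -0.96. Ccl5, Cxcl12 and Il6 passed the filter only through the doxycycline arrays, as their mean log2 values over the other 4 arrays were 5.58, 5.91 and 5.76 against a filter of 5.93, which favours lower values in any comparison with doxycycline. Counted over all 14 member probe sets, with no filter, 14 were lower with estradiol than with doxycycline and 12 had groups that did not overlap, against 48.8% and 20.9% of all 12422, and the median was -0.73 against 0.00652. This count takes in 4 dim probe sets that were below the filter, and it counts Cxcl1, Cxcl12 and Cx3cl1 more than once.

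**Figure D3:**
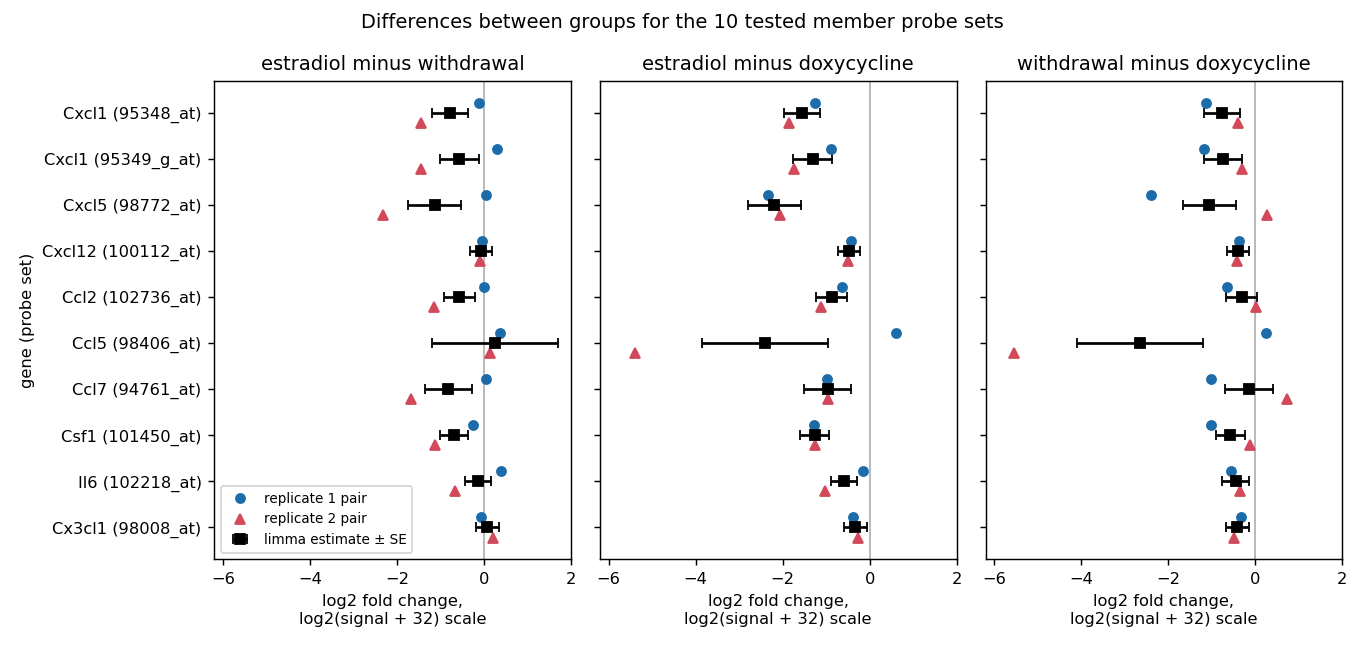
Log2 fold changes on the log2(signal + 32) scale for the 10 tested member probe sets in the 3 comparisons: squares with bars are limma estimates ± SE, circles the difference within replicate 1 and triangles the difference within replicate 2. For estradiol minus doxycycline the circles and triangles lie close together at negative values for Cxcl5, Ccl7 and Csf1, whereas in both comparisons with the withdrawal group they lie far apart for Cxcl5 and Ccl7.

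For estradiol against withdrawal, which by the labels adds active IRF-1 to oncogenes that are on in both groups, the members' values split by replicate number. Of 10 tested probe sets, 8 had a negative log2 fold change, against 49% of all, with a median of -0.56 against 0.0064. The median was 0.03 within replicate 1 and -1.13 within replicate 2, and 3 of 10 were lower in both. The arrays as a whole split likewise. Over all tested probe sets the median absolute difference was 0.086 within replicate 1 and 0.33 within replicate 2, and over the members it was 0.084 and 1.13. The estradiol arrays lay below both withdrawal arrays in 2 of 10, Cxcl1 (95348_at) and Csf1, where 10.3% of all tested probe sets did so. They lay above both in 1 of 10, Ccl5, where 11.6% did so. These Ccl5 signals, 24.0 and 16.9 against 11.5 and 12.1, were below the filter, near a signal of 29. None of the 10 had an unadjusted p under 0.05 in the lower direction, against 0.362% of all tested probe sets. With limma 0 of 10 passed after adjustment and 0% of all tested probe sets, of which 52 had an unadjusted p under 0.05. Without withdrawal replicate 1, which leaves 1 withdrawal array, at 387.8 in Cxcl5, that is assumed to vary like the other groups, Cxcl5 alone among the members passed, at -2.25 with a limma adjusted p of 0.0484, among 0.228% of all tested probe sets, and without withdrawal replicate 2 its estimate was -0.02. The members' median was -1.06 without withdrawal replicate 1 and -0.016 without withdrawal replicate 2.

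Withdrawal and doxycycline differ in doxycycline and so, by the labels, in the oncogenes. By the title of doxycycline replicate 2, which also names estradiol, that array would differ in estradiol too. For withdrawal against doxycycline, all 10 tested member probe sets had a negative log2 fold change, against 48.2% of all tested probe sets. Their median was -0.51 against 0.0141. Both withdrawal arrays lay below both doxycycline arrays in 4 of 10, namely Cxcl12, Csf1, Il6 and Cx3cl1, where 15% of all tested probe sets did so. The median was -0.83 within replicate 1 and -0.32 within replicate 2, and 6 of 10 were lower in both. With limma 0 of 10 passed and 0% of all tested probe sets, and 0 of 10 had an unadjusted p under 0.05 in the lower direction, against 2.31% of all. In either direction 326 probe sets had an unadjusted p under 0.05. The filter favours lower values here for Ccl5, Cxcl12 and Il6. Over all 14 member probe sets without a filter, 14 were lower, against 48.7% of all 12422. In 5 both withdrawal arrays lay below both doxycycline arrays, against 15.3% of all, and the median was -0.41 against 0.00646. That count takes in 4 dim probe sets that were below the filter, and it counts Cxcl1, Cxcl12 and Cx3cl1 more than once. Leaving out withdrawal replicate 2 moved the members' median to -1.10, and leaving out withdrawal replicate 1 moved it to -0.15. The 3 comparisons share arrays, so their values are not independent of each other.

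The spread of the members within each group was uneven. The estradiol replicates differed at least 2-fold in 0 of 10 member probe sets, against 3.35% of all tested probe sets. Withdrawal replicate 2 was at least 2-fold above replicate 1 in 4 of 10, both Cxcl1 probe sets, Cxcl5 and Ccl7, against 6.39% of all, and the doxycycline replicates differed so in 1 of 10, Ccl5, against 3.8% of all. Between withdrawal replicate 2 and doxycycline replicate 1, 0 of 10 members differed at least 2-fold, against 4.35% of all, and their median absolute difference was 0.24 log2 units, against 0.298 over all tested probe sets. Neither value sets the members apart from other probe sets. Between the withdrawal replicates the median absolute difference was 0.86 for the members, against 0.402 over all. Withdrawal replicates 1 and 2 came from different extraction kits, and the part of the kit in this difference was not tested. Between the estradiol arrays, which also came from different kits, it was 0.21, against 0.276 over all.

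**Figure D4:**
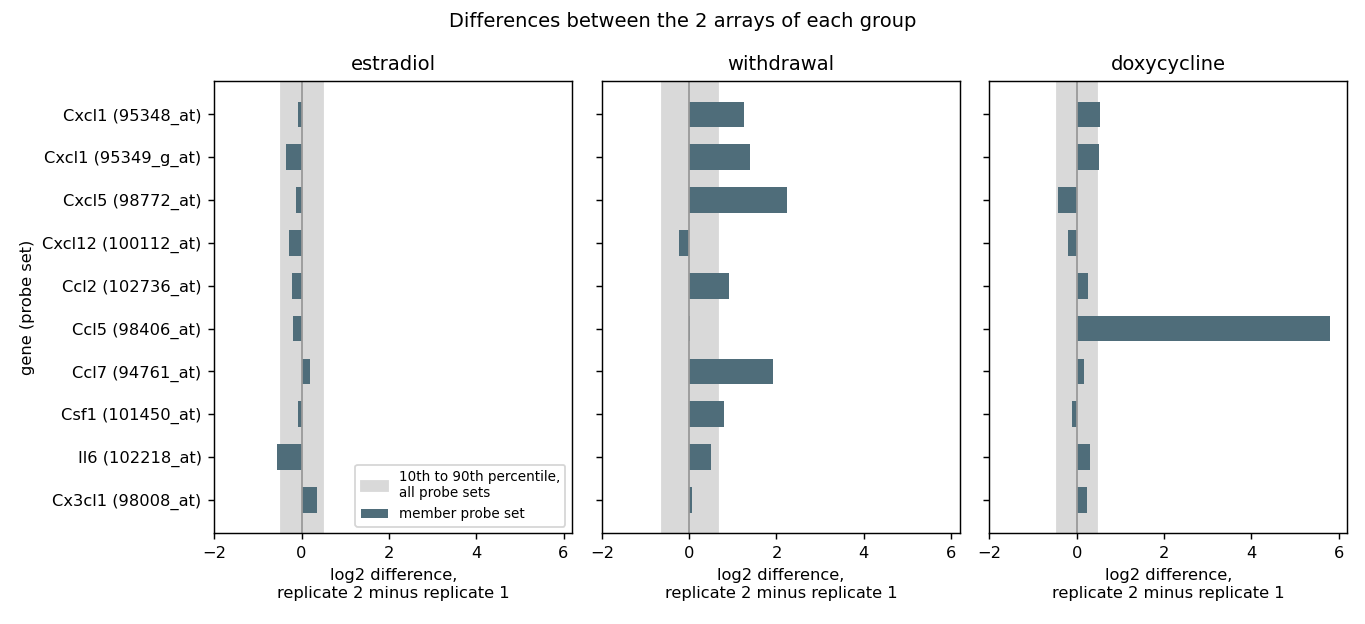
Replicate 2 minus replicate 1 within each group, in log2 units of signal + 32, as bars for the 10 tested member probe sets, with the 10th to 90th percentile of all 12422 probe sets in grey. In the withdrawal group the bars of Cxcl1, Cxcl5, Ccl2, Ccl7 and Csf1 end beyond the grey band, and in the doxycycline group the Ccl5 bar ends at 5.81.

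Genes around the members gave a mixed picture, and none of the lists held a gene that passed the test in any comparison. Of 28 other chemokine genes, 17 were on the array and 6 above the filter, and all 6 were lower with estradiol than with doxycycline, with a median log2 fold change of -0.35. Of all tested probe sets 49.6% were lower in this comparison, the share to set beside each count of lower genes. Ccl8, a relative of Ccl2, had 28.4 and 15.2 with estradiol, 10.7 and 180.5 after withdrawal and 80.4 and 211.6 with doxycycline, which is the split of withdrawal arrays seen in Ccl7. Ccl9 had 275.2 and 448.3 with estradiol, 270.5 and 2396.2 after withdrawal and 1080.0 and 219.0 with doxycycline, so that its doxycycline arrays disagreed too. Among 10 tested receptor genes, 8 were lower with estradiol than with doxycycline, with a median of -0.34. Ackr3, a scavenging receptor for Cxcl12, had a log2 fold change of -1.35 ± 0.30 and Il6st, the signalling chain for Il6, one of -1.19 ± 0.43 (SE), with limma adjusted p-values of 0.255 and 0.301.

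Of 16 tested genes of the NF-kappaB pathway and its output, 11 were lower with estradiol than with doxycycline, with a median of -0.25. The lowest p among them belonged to Ptx3, a secreted pattern recognition protein, at -2.19 ± 0.47, Ikbke, a kinase of the pathway, at -1.43 ± 0.34, and Relb, a subunit of the factor, at -0.81 ± 0.24 (log2, SE). Of 22 tested genes for turnover and induction of chemokine mRNA, 14 were lower, with a median of -0.30, among them the transcription factor gene Cebpd at -1.36, while the AP-1 gene Fosl1 at 0.98 and Elavl1, whose protein stabilises mRNAs, at 0.82 were higher. Of 8 tested genes for processing and shedding of chemokines, 4 were higher and 4 lower, with a median of -0.02 and with Mmp14, a membrane-bound metalloproteinase, at -1.80. Of 5 tested genes of other secreted cytokines, 4 were lower, with a median of -0.23 and with Lta, lymphotoxin alpha, at -1.06. Against doxycycline, all tested probe sets had a median of 0.00353 with estradiol, and 49.6% of them were lower. The adjusted p-values of limma for these genes were 0.255 or above.

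Fibroblast markers had lower values beside the members. Of 13 tested genes 13 were lower with estradiol than with doxycycline, against 49.6% of all tested probe sets, with a median log2 fold change of -0.66. The summed signal of the 15 listed genes was 23158.5 and 17400.8 with estradiol, 23111.4 and 30048.8 after withdrawal and 34762.4 and 30583.5 with doxycycline. Pdgfra, a growth factor receptor of fibroblasts, had 617.4 and 359.9 with estradiol, 590.7 and 2138.5 after withdrawal and 2586.7 and 1965.6 with doxycycline, so that its withdrawal arrays lay 1 with each of the other groups, as in Ccl2. Whether the members' values go with this wider difference in fibroblast genes was not tested. Leukocyte markers summed to 810.5 and 826.3 with estradiol, 782.3 and 871.0 after withdrawal and 889.5 and 950.5 with doxycycline. Of the endothelial markers 1 of 9 and of the epithelial markers 2 of 10 were above the filter.

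The genes most like each member were ranked by Pearson's r of log2(signal + 32) over the 6 arrays, among 2148 tested probe sets that span at least 1 log2 unit. These correlations describe 6 arrays that fall into dim and bright ones for most members, and carry no test. Cxcl5 was most like Dpp7 (0.995), Pld3 and Csad, and Csf1 most like Cnpy2 (0.991), Ptx3 and Pld3. Cxcl1 was most like Vmp1 (0.996), Ogn and Cst3, Ccl2 most like Stat3 (0.995), Map1lc3b and Prnp, and Ccl7 most like Foxf2 (0.999), Mmp11 and Golga4. Foxf2, a transcription factor gene, had 85.7 and 111.2 with estradiol, 84.7 and 417.1 after withdrawal and 216.7 and 233.3 with doxycycline, with the same bright withdrawal replicate 2 as Ccl7. Ccl5 was most like H2-Aa (0.997), Slfn2 and Mx1, which share its bright doxycycline replicate 2, and Il6 most like Phf1 (0.971), Pigr and Tnfrsf11a.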

How the data were processed

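RNA of 6 samples, 3 groups of 2, was hybridised to 1-colour Affymetrix arrays after biotin labelling, per the labels' protocols. Each deposited value is an intensity on a linear scale, computed by the authors with MAS5 according to the submitters' processing notes. No software version or setting is given in the sources used here. Depth does not apply to arrays, and the number of arrays limits precision. Trimmed means over all but 2% at each end were 150.09 to 150.1, and each array was rescaled to their common value.

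The tested scale was log2(signal + 32). Of 12488 probe sets, 66 controls and then the lowest 40% by mean log2 value were left out, and limma 3.58.1 (R 4.3.3) tested the other 7453, 1 mean per group over 6 arrays, with an intensity trend (3 residual and 5.23 prior degrees of freedom). The test was also run on simulated arrays with independent errors, which checks the procedure and not its accuracy on these arrays. Gene names came from the platform annotation.

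The members and lists were chosen with earlier results of these data known. Named genes were the members, up to 4 genes per list with the smallest unadjusted p in any comparison, and the 3 genes most like each member. Genes named to check the cells or the labels (Myc, Irf1, Col1a2, Vim, Lum, Ptprc, Adgre1, Csf1r, Cd14, Cd68, Fcgr3) were chosen outside that rule. Those with the largest excess on doxycycline replicate 2 were chosen after their values were seen. Replicate numbers go with the extraction kit, so they may pair arrays; deviations from the group means correlated at -0.0284 (estradiol and doxycycline), 0.449 (estradiol and withdrawal) and -0.00727 (withdrawal and doxycycline). Alternatives changed the pseudocount, the filter, the scaling, the trend, the arrays in the fit and the replicate block.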

Additional observations from a re-analysis of the deposited data

How the results depend on the processing

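No member probe set passed in any comparison under a floor, no filter or no trend (0 of 10), pseudocount 16 or quantile normalization (0 of 9), or with the lowest 60% left out (0 of 7). A fit with a replicate block, which pairs arrays by number, also called 0 and left the medians at -1.11 (estradiol against doxycycline), -0.56 (estradiol against withdrawal) and -0.51 (withdrawal against doxycycline). For estradiol against doxycycline, 3 members passed with only those 2 groups in the fit, and 0 to 3 when 1 array was left out. The count was 0 to 1 for estradiol against withdrawal and 0 to 1 for withdrawal against doxycycline. Leaving out an array of a compared group leaves 1 array there, which is assumed to vary like the other groups, and the calls without doxycycline replicate 1 are Ccl5, which passed the filter only through the array that remained, and restate that array. With withdrawal replicate 2 and doxycycline replicate 2 both left out, an alternative chosen after seeing the data, 3 of 8 tested members passed for estradiol against doxycycline and 1 for withdrawal against doxycycline. The withdrawal and doxycycline groups are then 1 array each and the spread comes from the 2 estradiol arrays and the prior, so these counts show nothing about stability.

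Over all probe sets, where the full fit called 0, estradiol against doxycycline gave 132 calls with only those groups, 136 without withdrawal replicate 2, 131 without withdrawal replicate 1, 25 without doxycycline replicate 1 and 278 with both arrays out. Estradiol against withdrawal gave 17 without withdrawal replicate 1. Withdrawal against doxycycline gave 26 without doxycycline replicate 1 and 50 with both arrays out.

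Leaving out 1 array turned the direction of 8 log2 fold changes, none of which passed. For estradiol against withdrawal the ranges were -1.26 to 0.13 (Cxcl1, 95349_g_at), -0.21 to 0.079 (Cxcl12), -1.78 to 0.14 (Ccl7), -0.39 to 0.15 (Il6) and -0.10 to 0.26 (Cx3cl1). For withdrawal against doxycycline they were -2.18 to 0.056 (Cxcl5), -0.77 to 0.15 (Ccl2) and -1.10 to 0.82 (Ccl7). With both arrays out, estradiol against withdrawal was 0.13 for Cxcl1 (95349_g_at) and 0.14 for Ccl7. The cause was not tested. Signals near the filter limit Cxcl10, Cxcl12 and Il6.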
